A study of Mus musculus with 4 samples.

Results

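Complement is a set of blood and tissue proteins, inhibitors and receptors that tags microbes, dead cells and debris for removal. The genes described here are 9 of its components and receptors, C1qa, C1qb, C1qc, C3, C4b, Cfb, Serping1, C3ar1 and C5ar1, taken by gene symbol from 32286 counted features (32285 mouse genes and the Cas9 transgene) in 4 libraries of single cells from the skeletal muscle of a mouse model of Duchenne muscular dystrophy. All 9 symbols were found. Muscle came from mice given LNP-CRISPR, lipid nanoparticles that carry CRISPR components, or vehicle. Each treatment gave 1 library of bulk muscle cells and 1 library of cells from a satellite cell isolation kit, so the 4 groups were LNP-CRISPR bulk, vehicle bulk, LNP-CRISPR kit and vehicle kit. The dystrophic background is shared by all 4 libraries, and the labels give no strain, age, dose, muscle or time and do not say how many animals a library holds. With 1 library per group no difference between treatments has a replicate check, so no test was made, and a difference between libraries cannot be told apart from one between animals or cell preparations. All intervals below are 95% intervals that cover counting error only.

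In the classical pathway the C1q complex, built from the chains of C1qa, C1qb and C1qc, binds antibody or damaged surfaces and, through its proteases, leads to cleavage of C4 and C2. Factor B, the product of Cfb, serves the alternative pathway, and both pathways meet at C3, whose fragments coat the target and, as C3a, signal through C3ar1, while C5a formed further on signals through C5ar1. Serping1 encodes C1 inhibitor, which blocks the C1 proteases. Macrophages are known as the main source of C1q in tissues, and dystrophic muscle is known for chronic infiltration by such cells and for expansion of fibro-adipogenic progenitors, the connective tissue cells abbreviated FAP.

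The libraries held 1317 barcodes (LNP-CRISPR bulk), 1305 (vehicle bulk), 2207 (LNP-CRISPR kit) and 1683 (vehicle kit), of which 1149, 1199, 1899 and 1404 cells were kept. Median depth was 16042 UMIs (counted RNA molecules) per cell in LNP-CRISPR bulk, 22270 in vehicle bulk, 10312 in LNP-CRISPR kit and 8627 in vehicle kit. Cas9 was counted 36382 times in LNP-CRISPR bulk and 10351 times in LNP-CRISPR kit, and 0 times in both vehicle libraries. Clusters were rebuilt here without any complement gene and called "X-like" from marker lists; 409 cells stayed unnamed. The labels of the kit libraries name a satellite cell isolation kit. Satellite-like cells made up 598 of the 1899 LNP-CRISPR kit cells and 526 of the 1404 vehicle kit cells. Beside them stood glial-like, pericyte or smooth muscle-like and fibre-like cells. The bulk libraries held most of the FAP-like (431 LNP-CRISPR and 650 vehicle) and macrophage or monocyte-like cells (183 and 210). Together the 9 genes gave 1328 and 1542 of every 1000000 UMIs in the LNP-CRISPR and vehicle bulk libraries, and 97.8 and 81.8 in the LNP-CRISPR and vehicle kit libraries. Levels below are UMIs summed over the cells of a class, per 1000000 nuclear-encoded UMIs (CPM).

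**Figure D1:**
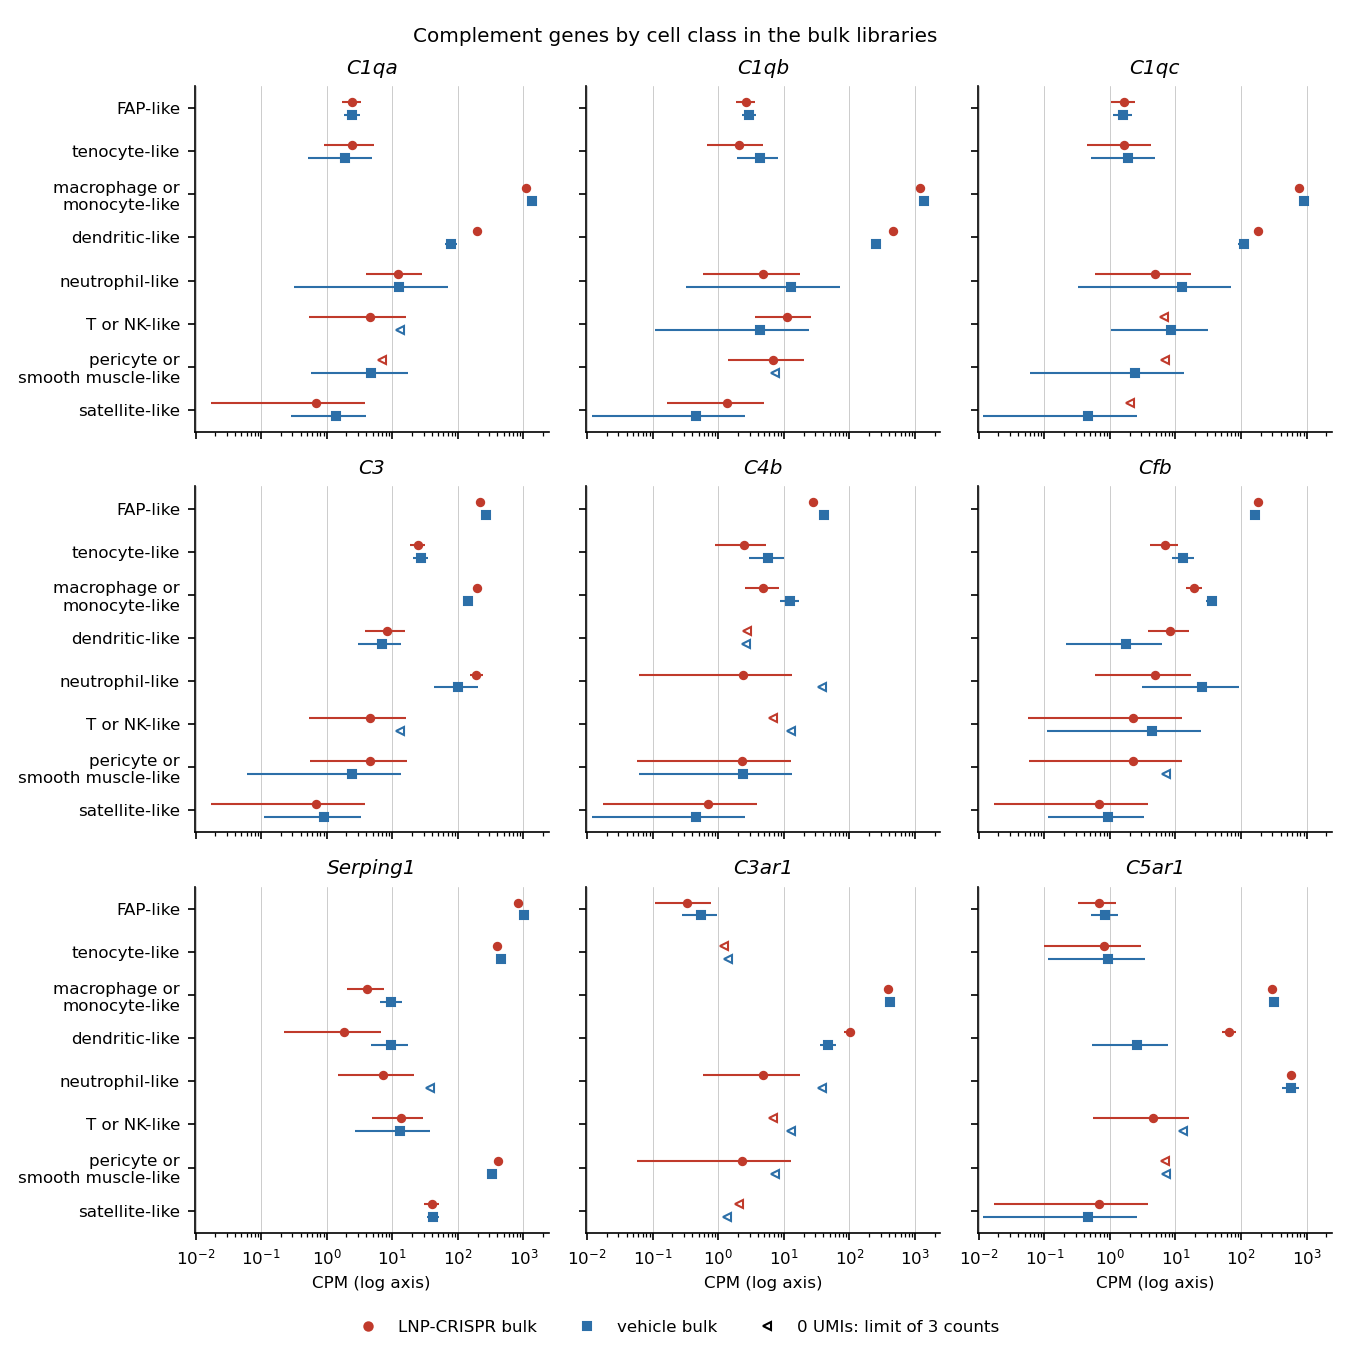
Level of each of the 9 complement genes (CPM, log axis, bars are 95% counting intervals) in cell classes of the LNP-CRISPR and vehicle bulk libraries. Glial-like, fibre-like, endothelial-like and unnamed cells are not drawn. The C1q chains and C3ar1 peaked in macrophage or monocyte-like cells, Serping1, Cfb and C3 in FAP-like cells and C5ar1 in neutrophil-like cells, in both libraries.

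The 3 C1q genes lie in one stretch of chromosome 4 (GRCm38, minus strand): C1qb (ENSMUSG00000036905) at chr4:136880129-136886187, C1qc (ENSMUSG00000036896) at chr4:136889804-136893065 and C1qa (ENSMUSG00000036887) at chr4:136895917-136898803. Only 3616 bases separate C1qb from C1qc and 2851 bases separate C1qc from C1qa. The promoters of C1qb and C1qc are shown because the chains moved together across cell classes. Each runs from 250 bases before to 50 bases after the RefSeq start (GRCm38.p6, minus strand, chr4:136886151-136886450 for C1qb and chr4:136892865-136893164 for C1qc), and capitals mark matches to the motifs named after them.

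C1qb: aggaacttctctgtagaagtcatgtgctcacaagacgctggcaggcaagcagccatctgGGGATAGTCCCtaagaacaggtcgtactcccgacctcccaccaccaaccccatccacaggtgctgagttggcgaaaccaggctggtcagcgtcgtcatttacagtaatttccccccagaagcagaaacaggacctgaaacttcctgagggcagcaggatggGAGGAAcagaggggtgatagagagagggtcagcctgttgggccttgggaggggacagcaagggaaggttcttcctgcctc

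C1qc: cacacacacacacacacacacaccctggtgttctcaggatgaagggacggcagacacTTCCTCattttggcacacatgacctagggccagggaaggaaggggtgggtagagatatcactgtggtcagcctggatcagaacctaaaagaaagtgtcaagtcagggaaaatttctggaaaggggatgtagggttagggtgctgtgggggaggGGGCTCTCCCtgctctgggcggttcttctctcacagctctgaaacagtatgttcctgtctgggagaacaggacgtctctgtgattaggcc

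Both C1q promoters held the PU.1 core GAGGAA, at -30 to -25 in C1qb and, on the other strand, at -193 to -188 in C1qc. PU.1 is a factor of myeloid cells, and this short core occurs in 28.3% of the 32851 promoters of the table, on either strand. An NF-kB-like match (GGGA, any 4 bases, then CC, present in 20.7% of promoters) stood at -191 to -181 in C1qb, where 2 matches on opposite strands overlap, and at -40 to -31 in C1qc. A match is a description of the letters and not a site shown to be bound.

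C1q transcripts came mainly from macrophage or monocyte-like cells of the bulk libraries, with 8107 UMIs in LNP-CRISPR and 10502 in vehicle, and next from dendritic-like cells, with 904 and 504 UMIs. C1qa reached 1087 CPM in LNP-CRISPR (1048 to 1127) and 1340 CPM in vehicle (1299 to 1383). C1qb reached 1187 and 1362 CPM there, and C1qc 752 and 910 CPM, in LNP-CRISPR and vehicle. The macrophage or monocyte-like level exceeded the dendritic-like one 5.53-fold for C1qa, 2.59-fold for C1qb and 4.09-fold for C1qc in LNP-CRISPR, and 17.2-fold, 5.33-fold and 8.36-fold in vehicle. Among the other bulk classes C1qa lay between 0 and 12.7 CPM, with 5 UMIs or fewer in each of the classes other than FAP-like and tenocyte-like, so their order cannot be read.

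A C1qa UMI was found in 39.9% of macrophage or monocyte-like cells in LNP-CRISPR and 48.1% in vehicle. FAP-like cells, which should lack C1qa, showed one in 7.89% and 6.77% of cells, at median depths of 29618 and 29465 UMIs against 14449 and 13916.5 in the macrophage or monocyte-like cells. With every cell thinned to 1000 UMIs the macrophage or monocyte-like shares were 27.7% in LNP-CRISPR and 36.1% in vehicle, and the FAP-like shares 0.474% and 0.154%. The FAP-like signal was thus 2.43 CPM of C1qa in each library and is read as background. No C1qa UMI was counted in any class of the kit libraries that held at least 20 cells; in satellite-like cells a count of 0 allows up to 0.116 CPM in LNP-CRISPR kit and 0.154 CPM in vehicle kit.

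The macrophage or monocyte-like class was made of clusters 14 and 9, which differed far more in C1q than the treatments did. Cluster 14 was led by Ms4a7, Fcrls, Apoe, Folr2 and Trem2, and cluster 9 by the monocyte genes Chil3, Arg1 and Ly6c2. C1qa reached 2519 CPM in LNP-CRISPR and 2869 CPM in vehicle in cluster 14, and 151 and 197 CPM in cluster 9, so cluster 14 exceeded cluster 9 16.7-fold in LNP-CRISPR (14.6 to 19.1) and 14.5-fold in vehicle (up to 16.3). C1qb was 7.77-fold higher in cluster 14 than in cluster 9 in LNP-CRISPR and 8.52-fold in vehicle. C1qc stood at 1724 and 1929 CPM in cluster 14 and at 117 and 149 CPM in cluster 9, in LNP-CRISPR and vehicle. No complement gene had been used to form the clusters, so these are measured differences between them.

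All 3 chains were found together in 74.2% of the 66 LNP-CRISPR cells and 76.6% of the 94 vehicle cells of cluster 14. In cluster 9 the share was 13.7% of 117 cells and 13.8% of 116 cells. The tenth of the cells with most C1q UMIs held 31.3% of them in cluster 14 and 86.3% in cluster 9 in LNP-CRISPR, and 32.3% and 74.4% in vehicle. C1q in cluster 9 thus rested on a few cells, while in cluster 14 it was spread over most of them.

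The chains also stood in different proportions in these clusters. C1qb made up 37.1% of the C1q UMIs of cluster 14 in LNP-CRISPR and 36.5% in vehicle, and 54.6% and 48.3% in cluster 9. C1qa made up 37.3% and 38.0% in cluster 14, and 25.6% and 29.5% in cluster 9. In the FAP-like cells, where C1q is background, C1qb took 39.4% and 42.2%. Dendritic-like cells had a C1qb share of 54.6% in LNP-CRISPR and 57.7% in vehicle.

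**Figure D2:**
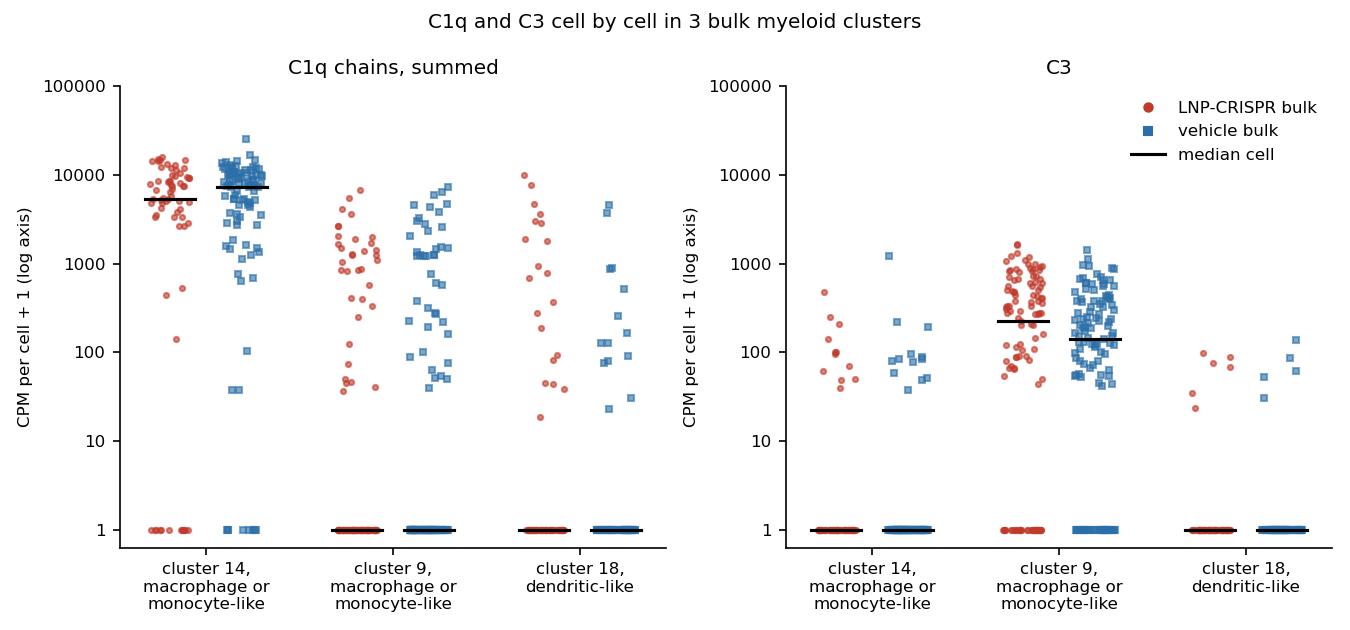
Level per cell (CPM + 1, log axis) of the summed C1q chains and of C3 in 3 bulk myeloid clusters, 1 point per cell, LNP-CRISPR left of vehicle. Most cells of cluster 14 hold C1q (median 5379 CPM in LNP-CRISPR and 7319 CPM in vehicle) and little C3, while cluster 9 holds C3 and has C1q in a minority of cells.

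C3 (ENSMUSG00000024164, chr17:57203970-57228136, GRCm38, minus strand) is the component on which all pathways converge. Its promoter (RefSeq, GRCm38.p6, chr17:57228087-57228386, minus strand) is shown with matches in capitals because C3, unlike C1q, was high in both stromal and myeloid cells.

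C3: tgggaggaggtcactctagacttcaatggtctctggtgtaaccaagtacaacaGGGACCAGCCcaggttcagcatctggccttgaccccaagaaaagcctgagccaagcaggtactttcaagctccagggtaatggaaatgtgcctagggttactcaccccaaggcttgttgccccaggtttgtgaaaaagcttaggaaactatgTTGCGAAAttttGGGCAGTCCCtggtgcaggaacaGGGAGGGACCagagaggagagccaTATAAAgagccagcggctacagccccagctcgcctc

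The C3 promoter held 1 C/EBP-like match (TTGCGNAA) at -45 to -38, a motif found in 0.798% of promoters. It held 3 NF-kB-like matches, at -197 to -188, -33 to -24 and -10 to -1, and TATAAA, found in 13.6% of promoters, at 15 to 20 bases past the annotated start. C/EBP and NF-kB factors are known for inflammatory gene activation. No match to the AP-1 letters TGANTCA or to the interferon element (GAAA, any 2 bases, GAAA) was found in these 3 promoters.

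C3 was highest in FAP-like cells, at 219 CPM in LNP-CRISPR (212 to 227) and 273 CPM in vehicle (266 to 280). Macrophage or monocyte-like cells followed with 194 CPM in LNP-CRISPR (178 to 212) and 145 CPM in vehicle (131 to 159), and neutrophil-like cells had 191 CPM from 79 UMIs and 101 CPM from 8 UMIs. The FAP-like level exceeded the macrophage or monocyte-like one 1.13-fold in LNP-CRISPR (from 1.03) and 1.89-fold in vehicle, while the macrophage or monocyte-like and neutrophil-like levels could not be separated at this depth in either library. Tenocyte-like cells had 24.6 CPM in LNP-CRISPR and 27.4 CPM in vehicle. A C3 UMI was found in 55.0% of FAP-like cells in LNP-CRISPR and 54.9% in vehicle, and in 51.4% and 47.6% of macrophage or monocyte-like cells.

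Between clusters 14 and 9 C3 ran opposite to C1q. In cluster 14 C3 stood at 21.7 CPM in LNP-CRISPR and 38.6 CPM in vehicle, and in cluster 9 at 307 and 224 CPM. The C3 level in cluster 14 was 0.0706 of that in cluster 9 in LNP-CRISPR and 0.172 in vehicle. In vehicle cluster 14, 1 cell had 1227 CPM of C3, and the next highest cell had 220 CPM. Dendritic-like cells, with 8.35 CPM in LNP-CRISPR and 7.02 CPM in vehicle, had little C3. Cells with both a C3 and a C1qa UMI numbered 18 of 183 macrophage or monocyte-like cells in LNP-CRISPR and 23 of 210 in vehicle.

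Cfb (ENSMUSG00000090231, chr17:34856374-34862518) encodes factor B, the protease subunit of the alternative pathway convertase. Its level in FAP-like cells was 181 CPM in LNP-CRISPR (174 to 188) and 163 CPM in vehicle (158 to 168), with a UMI in 70.1% and 70.2% of cells. Macrophage or monocyte-like cells were next with 19.4 CPM in LNP-CRISPR and 35.8 CPM in vehicle, 9.33-fold and 4.56-fold below FAP-like cells. Of the FAP-like cells with a C3 UMI, 81.4% in LNP-CRISPR and 80.1% in vehicle also had a Cfb UMI. The 5' end of Cfb lies 85 bases from the neighbouring gene C2, and the annotated gene Gm20547 overlaps both on the same strand and was not counted in the files.

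C4b (ENSMUSG00000073418, chr17:34728380-34743882) encodes the C4 chain cut by the C1 proteases, and lies 112491 bases from Cfb. It reached 27.5 CPM in FAP-like cells in LNP-CRISPR (24.9 to 30.3) and 41.3 CPM in vehicle (38.7 to 44.1). The highest C4b level in LNP-CRISPR bulk was in glial-like cells, 96.7 CPM (54.1 to 159), but this came from 15 UMIs in 3 of 22 cells. Counts of C4b are uncertain because of its near copy C4a: of 910 windows of 91 bases in the last 1000 bases of the C4b transcript, 151 (16.6%) also occur in C4a.

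Serping1 (ENSMUSG00000023224, chr2:84765387-84775444) is the C1 inhibitor gene, and its transcripts were found in both the bulk and the kit libraries. FAP-like cells had 828 CPM in LNP-CRISPR (814 to 843) and 1018 CPM in vehicle (1005 to 1032), with a UMI in 94.4% and 99.4% of cells. Tenocyte-like cells of the bulk libraries had 401 CPM in LNP-CRISPR and 461 CPM in vehicle, and pericyte or smooth muscle-like cells 409 and 334 CPM. The FAP-like level was 2.02-fold that of the next class in LNP-CRISPR and 2.21-fold in vehicle, and the pericyte or smooth muscle-like level could not be told from the tenocyte-like one in LNP-CRISPR (1.02-fold). Macrophage or monocyte-like cells had only 4.11 CPM in LNP-CRISPR and 9.63 CPM in vehicle, from 11 and 28 UMIs with at most 2 in any cell.

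In the kit isolations Serping1 was found in more classes than any other of the 9 genes. C3 reached 26.9 CPM in tenocyte-like LNP-CRISPR kit cells, from 19 UMIs of which 1 cell held 16, and had 0 UMIs in vehicle kit ones (up to 8.79 CPM). Pericyte or smooth muscle-like cells had 397 CPM of Serping1 in LNP-CRISPR kit (381 to 414) and 364 CPM in vehicle kit (340 to 389). Satellite-like cells had 38.3 CPM of it (36.0 to 40.8) and 55.3 CPM (52.0 to 58.7), and glial-like cells 17.4 and 11.7 CPM. Satellite-like cells with a Serping1 UMI made up 49.5% in LNP-CRISPR kit and 49.8% in vehicle kit.

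The satellite-like signal sat mainly in cluster 1, whose leading genes included Pax7, Calcr and Chrdl2, with Myf5 and Myod1 also enriched there. There Serping1 stood at 233 CPM in 223 LNP-CRISPR kit cells and 309 CPM in 229 vehicle kit cells. Clusters 8, 12, 15 and 22 of the same class had 7.87, 17.4, 10.9 and 47.0 CPM in LNP-CRISPR kit and 14.5, 6.78, 15.8 and 34.9 CPM in vehicle kit. Among the satellite-like clusters the level was thus set apart in cluster 1 in both kit libraries.

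**Figure D3:**
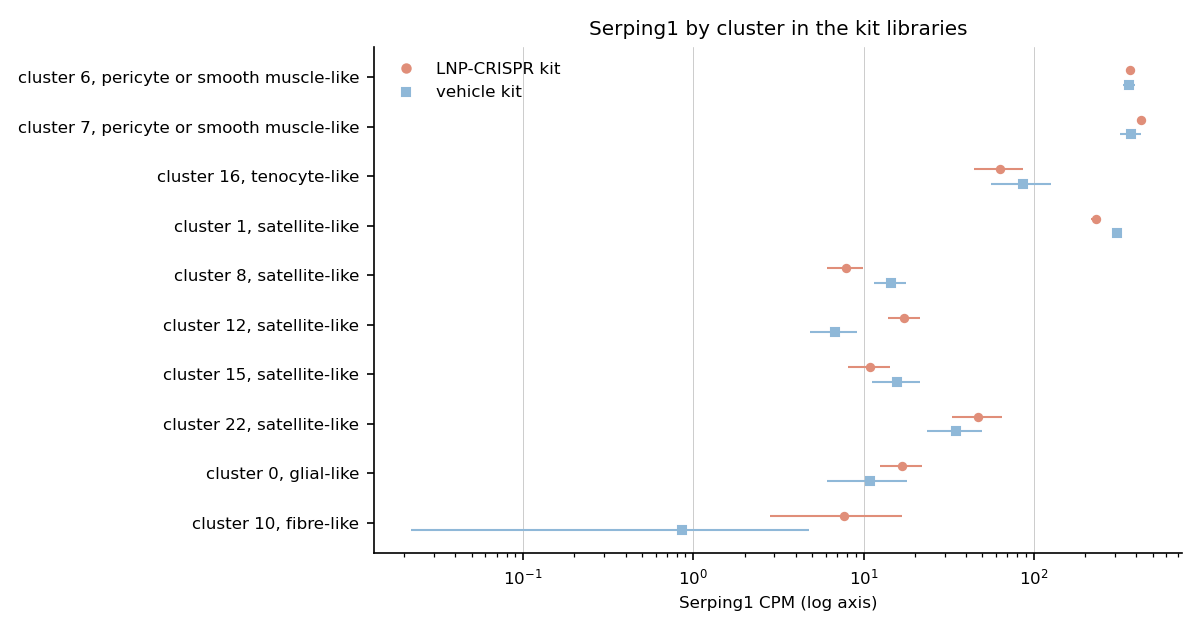
Serping1 level (CPM, log axis, bars are 95% counting intervals) in some clusters of the kit libraries, LNP-CRISPR above vehicle. Clusters 4, 5, 13, 19 and 23, among others, are not drawn. Highest among the clusters drawn are pericyte or smooth muscle-like clusters 6 (370 CPM in LNP-CRISPR and 362 CPM in vehicle) and 7 (426 and 371 CPM). Satellite-like cluster 1 (233 and 309 CPM) comes next.

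Some classes were present in both isolations, and there the Serping1 levels of kit and bulk cells can be set side by side. Tenocyte-like cells had 143 CPM in LNP-CRISPR kit against 401 CPM in LNP-CRISPR bulk, and 126 CPM in vehicle kit against 461 CPM in vehicle bulk, ratios of 0.356 (0.287 to 0.437) and 0.274 (0.197 to 0.371). Different clusters held this class in the isolations. Cluster 19, with 697 CPM in LNP-CRISPR bulk and 840 CPM in vehicle bulk, held 6 of the 38 LNP-CRISPR kit and 2 of the 24 vehicle kit cells, against 51 of the 109 LNP-CRISPR bulk and 35 of the 81 vehicle bulk cells. Within cluster 16 the levels were 63.2 CPM in LNP-CRISPR kit against 156 CPM in LNP-CRISPR bulk, and 86.0 CPM in vehicle kit against 99.5 CPM in vehicle bulk. In pericyte or smooth muscle-like cells the kit over bulk ratios were 0.971 (0.833 to 1.14) in LNP-CRISPR and 1.09 (0.910 to 1.31) in vehicle, and in satellite-like cells 0.945 (0.726 to 1.25) and 1.32 (1.06 to 1.65). C4b in glial-like cells had a kit over bulk ratio of 0.0733 (0.0363 to 0.152) in LNP-CRISPR, where the bulk level rests on 3 cells. The 2 isolations were not compared in FAP-like cells, of which the kit libraries held 7 and 2.

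C3ar1 (ENSMUSG00000040552, chr6:122847138-122856161) and C5ar1 (ENSMUSG00000049130, chr7:16246743-16259540) encode the receptors for the fragments C3a and C5a. C3ar1 was highest in macrophage or monocyte-like cells, at 387 CPM in LNP-CRISPR (364 to 412) and 415 CPM in vehicle (392 to 439), followed by dendritic-like cells with 102 and 47.4 CPM. C5ar1 was highest in neutrophil-like cells, at 583 CPM in LNP-CRISPR (511 to 661, 241 UMIs) and 583 CPM in vehicle (427 to 777, 46 UMIs), and macrophage or monocyte-like cells had 299 and 322 CPM. The neutrophil-like C5ar1 level was 1.95-fold the macrophage or monocyte-like one in LNP-CRISPR and 1.81-fold in vehicle. Neutrophil-like cells had 2 UMIs of C3ar1 in LNP-CRISPR and 0 in vehicle, so the receptors parted in that class.

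Both receptors were found in most macrophage or monocyte-like cells, C3ar1 in 62.3% and C5ar1 in 75.4% of LNP-CRISPR cells and in 69.0% and 77.6% of vehicle cells. Of the cells with a C3ar1 UMI, 89.5% in LNP-CRISPR and 86.9% in vehicle also had a C5ar1 UMI. FAP-like cells, at higher depth, showed C3ar1 in 1.16% and C5ar1 in 1.39% of LNP-CRISPR cells, and in 1.69% and 2.77% of vehicle cells. The receptors were common in both myeloid clusters. C3ar1 stood at 690 CPM in LNP-CRISPR and 635 CPM in vehicle in cluster 14 against 189 and 250 CPM in cluster 9, and C5ar1 at 262 and 332 CPM in cluster 14 against 323 and 314 CPM in cluster 9.

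Treatments were set side by side in each class with at least 50 cells in both libraries of an isolation, for genes with at least 30 UMIs over both. A gene is called higher or lower here when its CPM differed at least 1.5-fold between these 2 libraries. In FAP-like cells 1 of 7 members passed, against 8.07% of the 12928 genes compared. In tenocyte-like cells 1 of 3 passed, against 14.2% of 8742 genes, and in macrophage or monocyte-like cells 3 of 9, against 10.7% of 8569 genes. In dendritic-like cells 5 of 5 passed, against 20% of 6126 genes. For the kit isolations 0 of 1 passed in pericyte or smooth muscle-like cells (background 13.6%), 0 of 1 in satellite-like cells (6.31%) and 0 of 2 in glial-like cells (10.8%), while no member reached 30 UMIs in fibre-like cells.

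**Figure D4:**
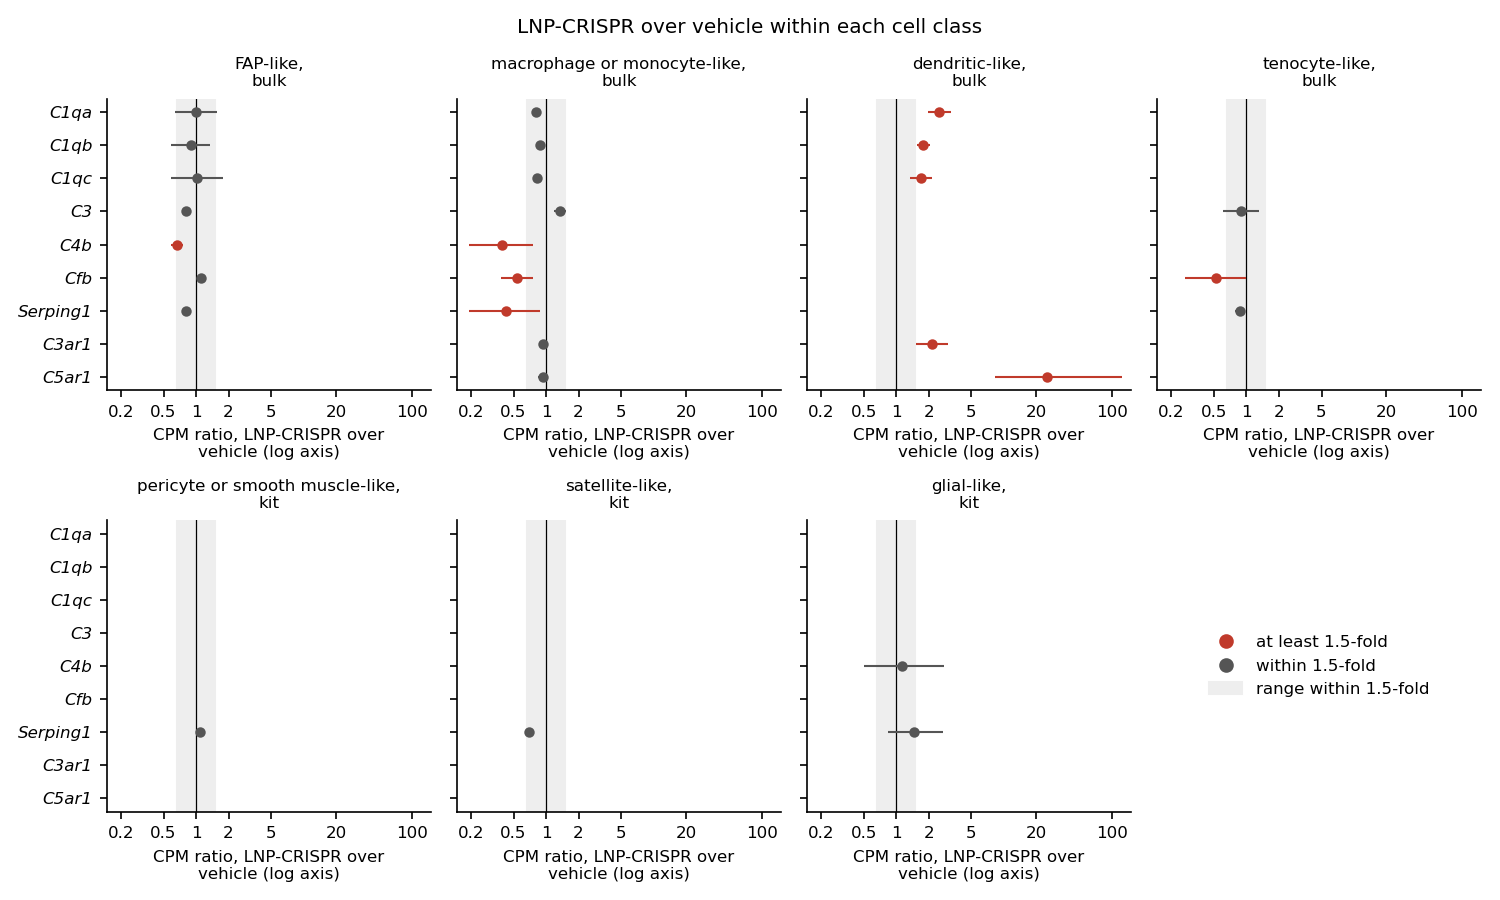
Ratio of LNP-CRISPR over vehicle for each member in each class compared (log axis, bars are 95% counting intervals, grey marks the range within 1.5-fold). Members sit near or below 1 in FAP-like and macrophage or monocyte-like cells, apart from C3 at 1.34 in the macrophage or monocyte-like class, and all 5 dendritic-like points lie above 1.

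In FAP-like cells C4b was lower in LNP-CRISPR, at 27.5 CPM against 41.3 CPM in vehicle, a ratio of 0.666 (0.591 to 0.749) that lies just past the 1.5-fold line. Serping1 had a ratio of 0.813 (0.796 to 0.831), C3 0.802 (0.768 to 0.837) and Cfb 1.11 (1.06 to 1.17), all inside that line. The C1q chains, background here, had ratios of 0.997, 0.897 and 1.03 for C1qa, C1qb and C1qc. The median log2 ratio of the 7 members was -0.16, and that of all genes compared was -0.05. The member median is the value of C1qb, which is among these background chains. Summed macrophage markers stood at 58.7 CPM in LNP-CRISPR FAP-like cells and 24.7 CPM in vehicle ones, mostly Lyz2 (48.4 and 13.1 CPM). Csf1r (1.75 and 3.47 CPM), Mrc1 (0.809 and 1.80 CPM) and Ms4a7 (0.539 and 1.26 CPM) were lower in LNP-CRISPR. Adgre1 (0.674 and 0.451 CPM) and Cd68 (4.58 and 3.92 CPM) were higher there.

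The 4 FAP-like clusters differed from one another more than the treatments did. Cluster 17, led by the interferon-response genes Cxcl9 and Ifit1, had the highest Cfb, with 344 CPM in LNP-CRISPR and 292 CPM in vehicle, and the highest Serping1, with 1383 and 1518 CPM. Cluster 2, led by Cxcl5, Pi16 and Wnt2, had the highest C3 at 292 and 380 CPM and the highest C4b at 41.0 and 56.5 CPM. Cluster 21, led by Ccl20, Csf2 and the proliferation gene Mki67, had the lowest Serping1, at 376 and 413 CPM, and the lowest C3, at 87.7 and 77.9 CPM. Cluster 3, led by Gdf10 and Myoc, had 1227 and 1495 CPM of Serping1.

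The LNP-CRISPR over vehicle ratio of C4b was below 1 in each of the 4 clusters: 0.726 in cluster 2, 0.441 in cluster 3, 0.553 in cluster 17 and 0.800 in cluster 21. That of C3 was 0.768, 0.893 and 0.600 in clusters 2, 3 and 17 and 1.13 in cluster 21. Cluster sizes were 203 and 250 cells (cluster 2), 121 and 286 (cluster 3), 74 and 67 (cluster 17) and 33 and 47 (cluster 21), in LNP-CRISPR and vehicle.

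**Figure D5:**
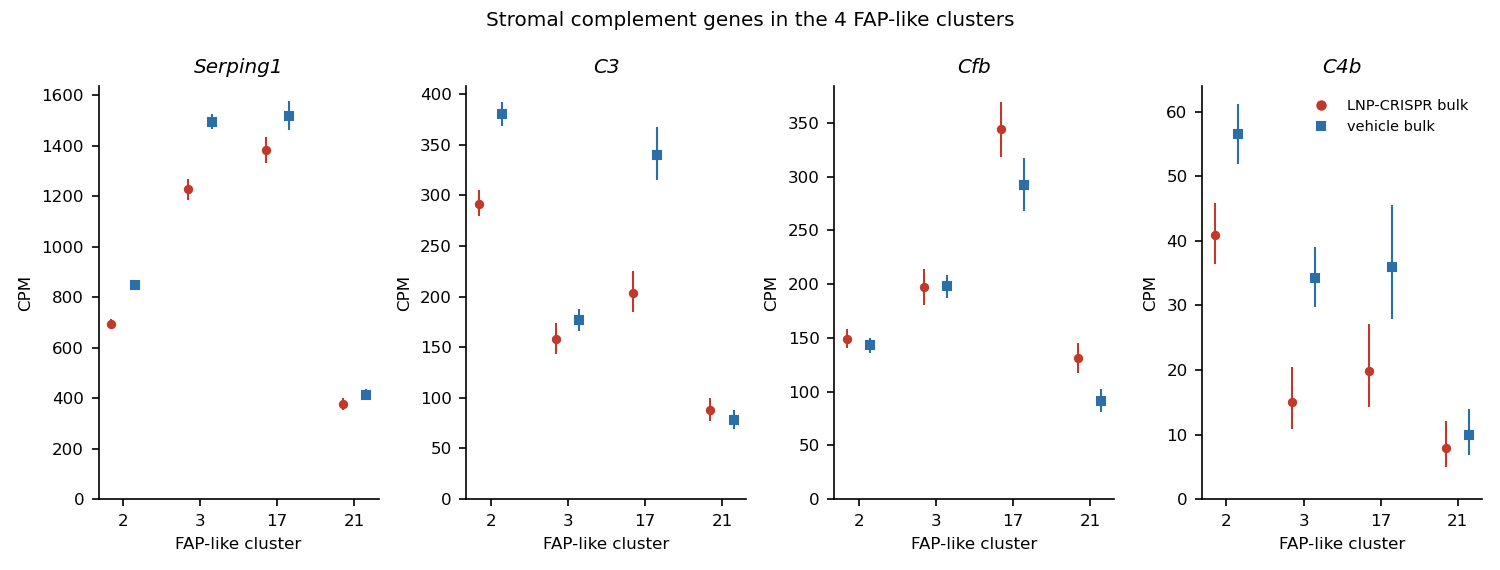
Levels of C3, C4b, Cfb and Serping1 (CPM, bars are 95% counting intervals) in the FAP-like clusters 2, 3, 17 and 21 of the bulk libraries, LNP-CRISPR left of vehicle. Cfb and Serping1 are highest in cluster 17 and C3 and C4b in cluster 2, in both libraries.

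In tenocyte-like cells Cfb was lower in LNP-CRISPR, at 6.96 CPM from 17 UMIs against 13.2 CPM from 28 UMIs in vehicle (0.526, 0.270 to 0.996). C3 and Serping1 had ratios of 0.897 and 0.870 there. The Serping1 ratio was 1.56 (1.23 to 1.99) in tenocyte-like cluster 16 and 0.830 (0.752 to 0.915) in cluster 19. In macrophage or monocyte-like cells the 3 genes called were all lower in LNP-CRISPR and all at low levels: C4b with 13 against 36 UMIs (0.392, 0.191 to 0.756), Cfb with 52 against 104 UMIs (0.542, 0.381 to 0.764) and Serping1 with 11 against 28 UMIs (0.426, 0.191 to 0.883). With called doublets kept, the Serping1 ratio there was 0.108. The abundant genes of that class stayed within 1.5-fold. C1qa had a ratio of 0.811 (0.773 to 0.851), C1qb 0.871 (0.831 to 0.913), C1qc 0.826 (0.779 to 0.876), C3ar1 0.934 (0.859 to 1.02) and C5ar1 0.929 (0.845 to 1.02), while C3 had 1.34 (1.18 to 1.53).

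Within cluster 14 the ratio of C1qa was 0.878, and within cluster 9 it was 0.767. Cluster 14 held 66 of 183 such cells in LNP-CRISPR and 94 of 210 in vehicle, so the class as a whole had fewer of its C1q-rich cells in LNP-CRISPR. C4b in cluster 14 was counted once in LNP-CRISPR and 35 times in vehicle (0.0335, from 0.000826), and Cfb stood there at 25.5 against 71.6 CPM (0.356). Cluster 9 went the other way, with 12 against 1 UMIs of C4b and 15.4 against 9.02 CPM of Cfb (1.71, 0.867 to 3.49), so the lower class levels of these genes came from cluster 14. C3 had a ratio of 0.563 in cluster 14 and 1.37 in cluster 9, where most of its UMIs were. The cluster 14 ratio includes 1 vehicle cell at 1227 CPM of C3, against 475 CPM in the highest LNP-CRISPR cell. That ratio was not computed without this cell, so its direction may rest on it.

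In dendritic-like cells all 5 members compared were higher in LNP-CRISPR. C1qa had 197 CPM from 212 UMIs in LNP-CRISPR against 78.1 CPM from 89 UMIs in vehicle (2.52, 1.96 to 3.26). C1qb had 458 against 255 CPM (1.79, 1.55 to 2.08), C1qc 184 against 109 CPM (1.69, 1.34 to 2.13) and C3ar1 102 against 47.4 CPM (2.15, 1.54 to 3.04). C5ar1 had 71 UMIs in LNP-CRISPR and 3 in vehicle, a ratio of 25.0 (8.22 to 124). The median log2 ratio was 1.11 over the 5 members and -0.05 over all genes compared.

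These values rest on few cells and stood beside higher levels of some macrophage genes. C1qb was found in 18 of 68 cells in LNP-CRISPR and 10 of 58 in vehicle, and 1 cell held 143 of its 494 UMIs in LNP-CRISPR and 1 cell 138 of its 291 UMIs in vehicle. C5ar1 was found in 11 LNP-CRISPR cells, all of which also had a C3ar1 UMI. The summed macrophage or monocyte markers stood at 7274 CPM in LNP-CRISPR and 3400 CPM in vehicle, with 8 of 8 markers detected in both. Most of that sum was Lyz2, with 6117 and 2311 CPM. Adgre1 had 69.6 and 16.7 CPM, Mrc1 199 and 132 CPM, Csf1r 180 and 144 CPM and Cd68 301 and 291 CPM. The summed dendritic markers stood at 852 and 838 CPM, with Flt3 at 58.4 and 92.2 CPM and Cd209a at 301 and 472 CPM, but Ccr7 at 302 and 154 CPM and Xcr1 at 15.8 and 9.66 CPM. The part of macrophage-like cells in the 5 ratios was not tested. When the complement genes were left among the clustering genes, the ratios turned to 0.541 for C1qa, 0.665 for C1qb and 0.412 for C1qc, so the direction depends on which cells are counted as dendritic-like. Under the stricter cell filter C1qb and C1qc had ratios of 1.25 and 1.09, and C3ar1 1.47, all inside 1.5-fold, and with called doublets kept C1qb and C1qc had 1.21 and 1.08.

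In the kit libraries no member was called. Serping1 had ratios of 1.09 (1.01 to 1.18) in pericyte or smooth muscle-like, 0.693 (0.635 to 0.757) in satellite-like and 1.48 (0.846 to 2.73) in glial-like cells, and C4b had 1.14 (0.504 to 2.81) in glial-like cells. The satellite-like clusters went in different directions, with Serping1 ratios of 0.752 in cluster 1, 0.543 (0.391 to 0.751) in cluster 8, 2.57 (1.76 to 3.82) in cluster 12, 0.690 (0.446 to 1.08) in cluster 15 and 1.35 (0.806 to 2.26) in cluster 22. Thinned to 1000 UMIs per cell, the satellite-like ratio was 1.10.

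The rest of the complement system was followed with 45 further genes, of which some of those with most UMIs in each group are named here. The C1 protease genes followed Serping1 in being stromal: C1s1 stood at 341 CPM in LNP-CRISPR and 351 CPM in vehicle in FAP-like cells, and C1ra at 171 and 185 CPM. Colec12, a scavenger receptor collectin, had 202 and 236 CPM in FAP-like cells. Cfp, which encodes properdin, the stabiliser of the alternative convertase, was a myeloid gene here, with 211 and 229 CPM in macrophage or monocyte-like and 309 and 263 CPM in dendritic-like cells. Cd59a, a membrane inhibitor of the terminal complex, reached 412 CPM in LNP-CRISPR kit and 467 CPM in vehicle kit in glial-like cells. Itgam, a chain of complement receptor 3, had 701 and 692 CPM in macrophage or monocyte-like and 887 and 925 CPM in neutrophil-like cells. Its partner Itgb2 had 361 and 334 CPM in macrophage or monocyte-like cells. Among the membrane inhibitors, Cd55 had 70.4 and 79.1 CPM and Cr1l 65.5 and 67.8 CPM in FAP-like cells. Vtn, which encodes the soluble regulator vitronectin, had 54.1 and 44.5 CPM there, and Clu had 246 CPM in LNP-CRISPR kit and 180 CPM in vehicle kit in pericyte or smooth muscle-like cells. The terminal components were scarce: C7 gave 528 UMIs over all cells, C8g 45 and C9 14, and C8a and C8b gave 0.

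Of these other genes 6 of the 19 compared in FAP-like cells passed 1.5-fold, against 8.07% of all genes. Lower in LNP-CRISPR were C2 (13.3 against 23.2 CPM), Masp1 (3.77 against 7.39 CPM), C7 (6.61 against 18.5 CPM) and Clu (25.5 against 47.2 CPM). C2 encodes the protease subunit of the classical convertase, Masp1 a protease of the lectin pathway, C7 a terminal component and Clu the soluble regulator clusterin. Higher were C4a (1.82 against 0.811 CPM), which shares sequence with C4b, and Cfp, with a ratio of 2.22. Cfp gave only 46 UMIs in LNP-CRISPR and 31 in vehicle there, against 565 and 665 in the fewer macrophage or monocyte-like cells. C1qa, read as background in FAP-like cells, gave 36 and 54 UMIs in them. The part of background in the Cfp ratio was not tested. In macrophage or monocyte-like cells Colec12 (10.5 against 17.2 CPM) was lower and Itgax (41.8 against 20.6 CPM) higher in LNP-CRISPR. For Itgax 1 LNP-CRISPR cell held 40 of the 112 UMIs, so the higher level rests partly on that cell. An Itgax UMI was found in 22 of 183 cells in LNP-CRISPR and 33 of 210 in vehicle, a lower share in LNP-CRISPR. In dendritic-like cells 0 of 6 passed, against 20% of all genes. Among kit cells 2 of 8 passed in the pericyte or smooth muscle-like class (13.6% of all genes), Vtn (1.45 against 9.76 CPM) and Colec12 (5.99 against 3.82 CPM). In satellite-like cells 3 of 13 passed (6.31% of all genes), C1s1 (0.544 against 1.38 CPM), Vtn (1.40 against 2.15 CPM) and Cd55 (3.22 against 2.10 CPM). None of 3 passed in fibre-like cells, where 1138 of all 4197 genes compared did. None of 3 passed in glial-like cells, where 10.8% of all genes did.

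The genes most like each member across 27 pairs of class and library were named by Pearson correlation of log2(CPM + 1), as a description, since the points of a library share its depth and background. C1qa was closest to Clec4a1 (0.976), followed by Aif1 (0.969) and Fcgr2b (0.950), while C1qb and C1qc had Aif1 first, at 0.966 and 0.943. C3 was closest to Pxk (0.891), Oasl2 (0.876) and Ccl7 (0.865), and Cfb to Smoc2 (0.869), Pi16 (0.862) and Serpinb2 (0.852). Serping1 was closest to Tm4sf1 (0.967), Ndn (0.938) and Rhoj (0.936), and C4b to Agmo (0.827), Apba1 (0.799) and Sfrp1 (0.798). C3ar1 was closest to Gm6377 (0.976), Fcgr1 (0.973) and Cd180 (0.969), and C5ar1 to Klra2 (0.973), Il1rn (0.971) and Trem1 (0.970). Among the members, C1qa correlated with C1qb at 0.946 and with C1qc at 0.939, and C3 with Cfb at 0.849.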

How the data were processed

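Raw UMI counts per gene and cell were used as deposited by the authors for 4 libraries (10x Genomics Chromium 3' v3.1, per the labels' protocols). Cell Ranger 7.0.1 and the mm10 build are given per the submitters' processing notes, and cellranger 5.0.1 per the file headers. Barcodes under 200 genes or over 20% mitochondrial UMIs were dropped, and Scrublet doublets (3 to 8 per library) removed; 6 barcodes were shared between libraries. Cells were clustered on 2000 variable genes without the 9 members and 45 other complement genes (scanpy 1.11.5, 30 components, 15 neighbours, Leiden resolution 1.0). Clusters were named from marker lists; differences from the authors' own classes may come from these rebuilt names. The UMIs of a class were summed and divided by its nuclear-encoded UMIs (CPM); levels have exact Poisson intervals and ratios exact conditional binomial ones; 0 UMIs were given a limit of 3 counts. Depth per library ranged from 25921795 to 40666916 UMIs. Ratios needed 50 cells in both libraries and 30 UMIs; 1.5-fold counted as a call. Clustering was run with fixed seeds and the ratio code was tested on simulated data. No test across treatments was possible with 1 library per group. Named were all members, the 3 other complement genes with most UMIs in each pathway group, any past 1.5-fold in at least 2 classes, and the 3 genes most like each member; other genes past 1.5-fold were named after their values were seen. Members, lists and alternatives were chosen with earlier results of these data known. Gene positions came from GENCODE M21 (GRCm38), with 32197 gene IDs matched. RefSeq promoter sequences (GRCm38.p6) were matched by symbol for 5 of the 9 members (C1qb, C1qc, C3, C3ar1 and C5ar1). A result that the naming rule covers is not reported here.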

Additional observations from a re-analysis of the deposited data

Results flagged for a closer look

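The ratios of LNP-CRISPR over vehicle of some members lay above 1 in one class and below 1 in another of the same isolation, with counting intervals that excluded 1 on both sides. The difference between classes itself was not tested, since each group is 1 library. C1qa stood at 2.52 in dendritic-like and 0.811 in macrophage or monocyte-like cells, C1qb at 1.79 and 0.871, and C1qc at 1.69 and 0.826. With complement genes among the clustering genes the dendritic-like ratios were 0.541, 0.665 and 0.412, so this contrast is lost there. C3 stood at 1.34 in macrophage or monocyte-like and 0.802 in FAP-like cells. Cfb stood at 1.11 in FAP-like cells, against 0.526 in tenocyte-like and 0.542 in macrophage or monocyte-like cells. In the kit libraries Serping1 stood at 1.09 in pericyte or smooth muscle-like and 0.693 in satellite-like cells. With cells thinned to equal depth the satellite-like ratio lay above 1, so its side of this contrast is not kept there. Among the satellite-like clusters compared, the ratio ran from 0.543 in cluster 8 to 2.57 in cluster 12.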

How the results depend on the processing

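In bulk, 10 member ratios passed 1.5-fold, and this count was 6 under the stricter cell filter (500 genes, 10% mitochondrial UMIs), 5 with cells named cell by cell, 2 after thinning to 1000 UMIs, 6 with at least 100 UMIs and 5 at 2-fold. It was 8 when clustered with the complement genes, 13 with equal weight per cell and 15 with no minimum of UMIs. In the kit libraries 0 ratios passed, and the count was 1 with equal weight per cell, 1 without the highest cell and 3 with no minimum. With complement genes among the clustering genes the dendritic-like ratios turned to 0.541 for C1qa, 0.665 for C1qb and 0.412 for C1qc. Thinning and the higher minimum compare fewer genes; the cause of the other shifts was not tested. The leading class in both bulk libraries held for 9 of 9 members under 6 alternatives of clustering, doublets, weights and denominator, and for 8 under the stricter filter, naming cell by cell and thinning, where C4b in LNP-CRISPR bulk led in FAP-like cells. Genes with few UMIs in a class, such as C4b and Serping1 in macrophage or monocyte-like cells, are limited by depth. No paired analysis was possible because each group is 1 library.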

Other observations

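Barcodes removed for few genes or many mitochondrial UMIs were summed separately. In the LNP-CRISPR bulk and vehicle bulk libraries they held 178 and 174 CPM of C1qa, 181 and 80.6 CPM of C3, and 85.1 and 25.5 CPM of Cfb. The ratio of LNP-CRISPR over vehicle was 1.02 for C1qa, 2.25 (1.30 to 4.05) for C3 3.34 (1.32 to 10.0) for Cfb, 5.53 (1.63 to 29.2) for C3ar1 and 0.125 (0.0137 to 0.543) for C4b. The C3ar1 and C4b ratios rest on 19 against 3 and 2 against 14 UMIs. Bulk cells left without a name, 42 in LNP-CRISPR and 27 in vehicle, had 727 and 1006 CPM of Serping1.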
